A study of Rattus norvegicus with 9 samples.

Results

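The subject is 34 listed genes that build cholesterol and fatty acids, looked up by symbol among 22250 gene rows of bulk RNA sequencing. The tissue is rat uterus, described in the sample titles as endometrial, that is, of the inner lining. Of the 34 listed genes, 33 had a row: 19 enzymes of the sterol pathway, 6 regulators of sterol synthesis and 8 enzymes of fatty acid synthesis and desaturation. Of these 33, 32 had enough counts to be tested, and Elovl6, which elongates long fatty acids, had 0 to 2 counts per library. The members were chosen by name and function, with earlier results of these data known.

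Messenger RNA was sequenced in 9 libraries, 3 in each of 3 groups, from female Sprague-Dawley rats 10 weeks old. The group LER+LIG received hydroxyurea, an inhibitor of deoxynucleotide synthesis, at 450 mg/kg per day by gavage for 10 days and adrenaline at 0.3 mg/kg per day under the skin on days 4 to 10. After mating it received LIG, ligustilide per the series title, at 40 mg/kg per day by gavage from day 0.5 of gestation. The group LER had the same hydroxyurea and adrenaline and then olive oil. The group NER had saline in place of both drugs and then olive oil, and all 3 groups were mated. The labels do not say that libraries came from separate animals, and p-values therefore cover only how these libraries spread. The comparison of LER with NER concerns the hydroxyurea and adrenaline treatment, and that of LER+LIG with LER concerns LIG given after it.

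Cholesterol is made from acetyl-CoA through mevalonate, isoprenoid diphosphates, squalene and lanosterol. The transcription factors SREBP-2 and SREBP-1, encoded by Srebf2 and Srebf1, are held in the endoplasmic reticulum by INSIG proteins while sterols are plentiful. When sterols run low, SCAP escorts them to the Golgi, where proteases free the part that activates the genes of sterol uptake and synthesis together. SREBP-1c and the liver X receptors, which sense oxysterols, also drive the fatty acid enzymes. In the uterus, cholesterol and lipid metabolism are studied as part of the response to ovarian steroids and of preparation for implantation.

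The promoter sequences of 4 members are shown because SREBP factors are known to act through short elements near gene starts, often beside NF-Y boxes. RefSeq windows on the rat assembly GRCr8 were matched by symbol for 26 of the 33 genes. The coordinates belong to GRCr8 alone, since the sources used here do not give the build behind the expression table. Each line gives the 250 bases before the annotated start, 5′ to 3′ on the gene's strand. Capitals mark the SREBP element of the form TCACNCCA and the NF-Y box CCAAT, on either strand. Msmo1 lies at chr16:29746863-29747112 on the plus strand and Srebf2 at chr7:115543057-115543306 on the plus strand. Hmgcs1 lies at chr2:53382054-53382303 on the plus strand and Idi1 at chr17:66547525-66547774 on the minus strand.
Msmo1: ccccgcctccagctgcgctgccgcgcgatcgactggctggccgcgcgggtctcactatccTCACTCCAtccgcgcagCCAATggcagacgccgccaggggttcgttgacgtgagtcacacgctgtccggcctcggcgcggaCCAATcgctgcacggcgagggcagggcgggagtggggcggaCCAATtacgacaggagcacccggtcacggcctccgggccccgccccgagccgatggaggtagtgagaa
Srebf2: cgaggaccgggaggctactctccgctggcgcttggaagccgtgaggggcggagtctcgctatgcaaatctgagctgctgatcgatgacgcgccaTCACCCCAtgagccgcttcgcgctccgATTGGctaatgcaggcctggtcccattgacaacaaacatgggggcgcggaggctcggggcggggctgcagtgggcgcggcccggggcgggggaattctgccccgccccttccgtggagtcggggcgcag
Hmgcs1: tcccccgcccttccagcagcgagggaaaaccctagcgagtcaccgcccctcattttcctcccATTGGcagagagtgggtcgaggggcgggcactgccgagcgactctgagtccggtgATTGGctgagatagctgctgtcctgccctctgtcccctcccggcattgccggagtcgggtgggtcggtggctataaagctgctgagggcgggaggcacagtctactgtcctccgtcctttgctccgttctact
Idi1: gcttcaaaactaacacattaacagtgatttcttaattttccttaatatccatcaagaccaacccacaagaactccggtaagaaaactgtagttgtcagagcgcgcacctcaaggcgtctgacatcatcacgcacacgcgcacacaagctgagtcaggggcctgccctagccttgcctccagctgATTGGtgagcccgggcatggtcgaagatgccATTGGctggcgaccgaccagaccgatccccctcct
TCACNCCA occurred in 2 of the 26 genes, as TCACTCCA starting 190 bases before the start of Msmo1 and as TCACCCCA starting 156 bases before the start of Srebf2. It was present in 2 of the 27 windows of these 26 genes and in 3.24% of all 33469 RefSeq windows of this length. CCAAT was found in 20 of the 26 genes, or 21 of the 27 windows, and in 34.02% of all windows. The Sp1 box GGGCGG, not capitalised, was found in 20 of the 26 genes, or 21 of the 27 windows, and in 30.5% of all windows. The end of TCACNCCA can share letters with CCAAT, but no capitalised matches overlap in the 4 windows shown. A match describes the letters in the window and is not a binding site. A window without a match does not show that a gene lacks an SREBP element, since only this form was searched, in 250 bases.

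Libraries held 13241537 to 15354085 counts, of which the 33 genes took 0.240% to 0.524%. Several libraries stood apart. LER+LIG replicate 1 had a trend with gene length: genes in the shortest quartile, up to 1647 bases, had a median of 0.44 above the mean of the 9 libraries on the log2 scale, and genes of 4575 bases or more a median of -0.37. LER replicate 1 carried adipocyte genes. LER+LIG replicates 2 and 3 and NER replicate 3 were high in oestrogen-responsive uterine genes and low in progesterone-responsive ones. Stromal and smooth muscle markers, which define the connective tissue and muscle of the uterus, were abundant in every library. The summed level of 8 stromal markers was 8993 to 44419.5 CPM and that of 6 smooth muscle markers 7803 to 16370 CPM, and the 11 epithelial markers, led by Krt8, summed to 722 to 3925 CPM. CPM are counts scaled to the library's total and its TMM factor from edgeR.

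Levels of different genes were compared per length, as FPKM, counts scaled to the length of the gene model and the library's total. The gene with the highest mean level over the 9 libraries was Scd2, a stearoyl-CoA desaturase that places the double bond in saturated fatty acids, at 239 FPKM. Fads2, the delta-6 desaturase of polyunsaturated fatty acids, followed at 63.5 FPKM. Idi1, the isopentenyl diphosphate isomerase, had 61.5 FPKM. Hmgcs1, the cytosolic HMG-CoA synthase, and Insig1, which retains SCAP when sterols are plentiful, both had 50.3 FPKM. Among the sterol enzymes the levels were uneven along the pathway. Cyp51, the lanosterol demethylase, had 45.1 FPKM and Msmo1, the methylsterol oxidase of the next steps, 37.8 FPKM. Lss, the lanosterol synthase just before them, had 3.33 FPKM, and Hsd17b7, a ketosteroid reductase that acts with Msmo1 and Nsdhl, had 1.98 FPKM, the lowest mean of the tested members. The gene models behind the FPKM were unequal in length, with 8862 bases for Lss, 3341 for Cyp51 and 1849 for Msmo1. The part of model length in this ranking was not tested. Scd2 was the highest member in each of the 9 libraries, while the libraries of Fads2, Idi1, Hmgcs1 and Insig1 overlapped one another.

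**Figure D1:**
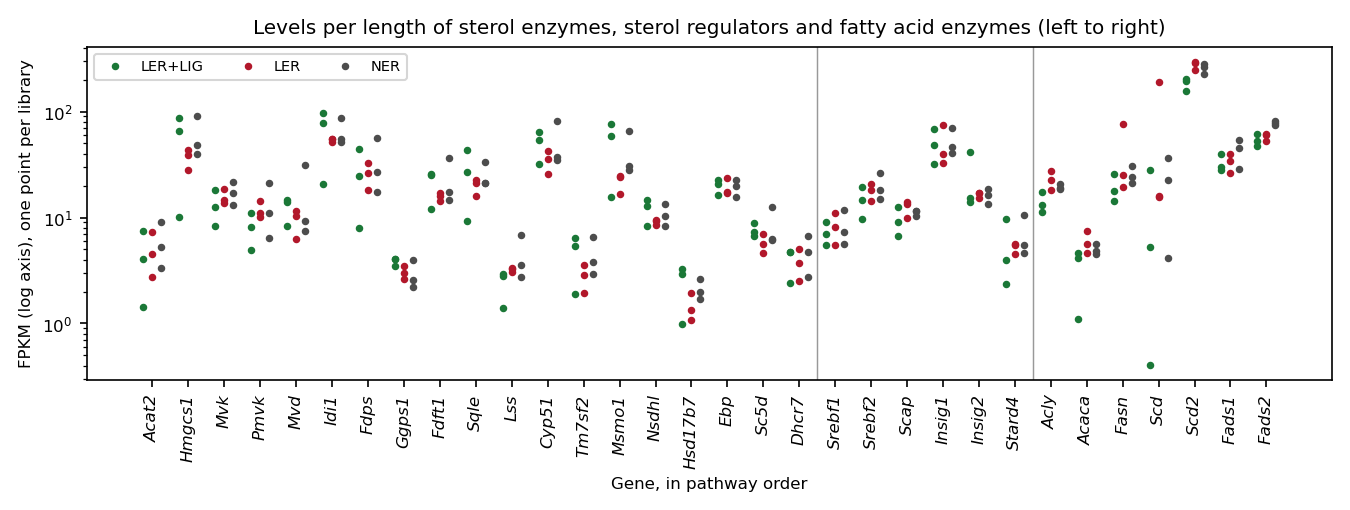
FPKM on a log axis for the 32 tested genes in pathway order, with 1 point per library for LER+LIG, LER and NER. Scd2 lies above every other gene in its mean over the 9 libraries, and Scd has the widest spread.

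The sterol enzymes were high or low together in single libraries, and the libraries of a group did not share one level. The summed level of the 19 enzymes was 1841, 519 and 1336 CPM in LER+LIG replicates 1, 2 and 3. It was 986, 876 and 711 CPM in the LER libraries and 892, 912 and 1905 CPM in the NER libraries. LER+LIG therefore held both the lowest sum and a sum close to the highest, which was that of NER replicate 3. In this bulk tissue, fewer cells of a type and less RNA per cell cannot be told apart.

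Relative to each gene's own mean log2 CPM over the 9 libraries, the median sterol enzyme stood at 0.71, -0.74 and 0.34 in the LER+LIG libraries, -0.04, -0.15 and -0.53 in the LER libraries and -0.18, -0.14 and 0.91 in the NER libraries. The lowest of all 9 libraries was LER+LIG replicate 2 for 12 of the 19 enzymes, or 63.2%, against 16.9% of all tested genes. NER replicate 3 was the highest NER library for 18 of the 19, or 94.7%, against 38.5% of all tested genes. It was the highest of all 9 libraries for 11 of the 19, or 57.9%, against 16.0% of all tested genes. The exception within NER was Ggps1, which makes geranylgeranyl diphosphate off the main line to cholesterol. None of the 3 LER libraries was the highest of the 9 for any sterol enzyme. Over all tested genes, LER replicates 1, 2 and 3 were the highest for 8.53%, 5.78% and 4.47%. LER replicate 3 was the lowest of the 9 for 3 of the 19, Mvd, Cyp51 and Sc5d, or 15.8% against 4.77% of all tested genes.

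**Figure D2:**
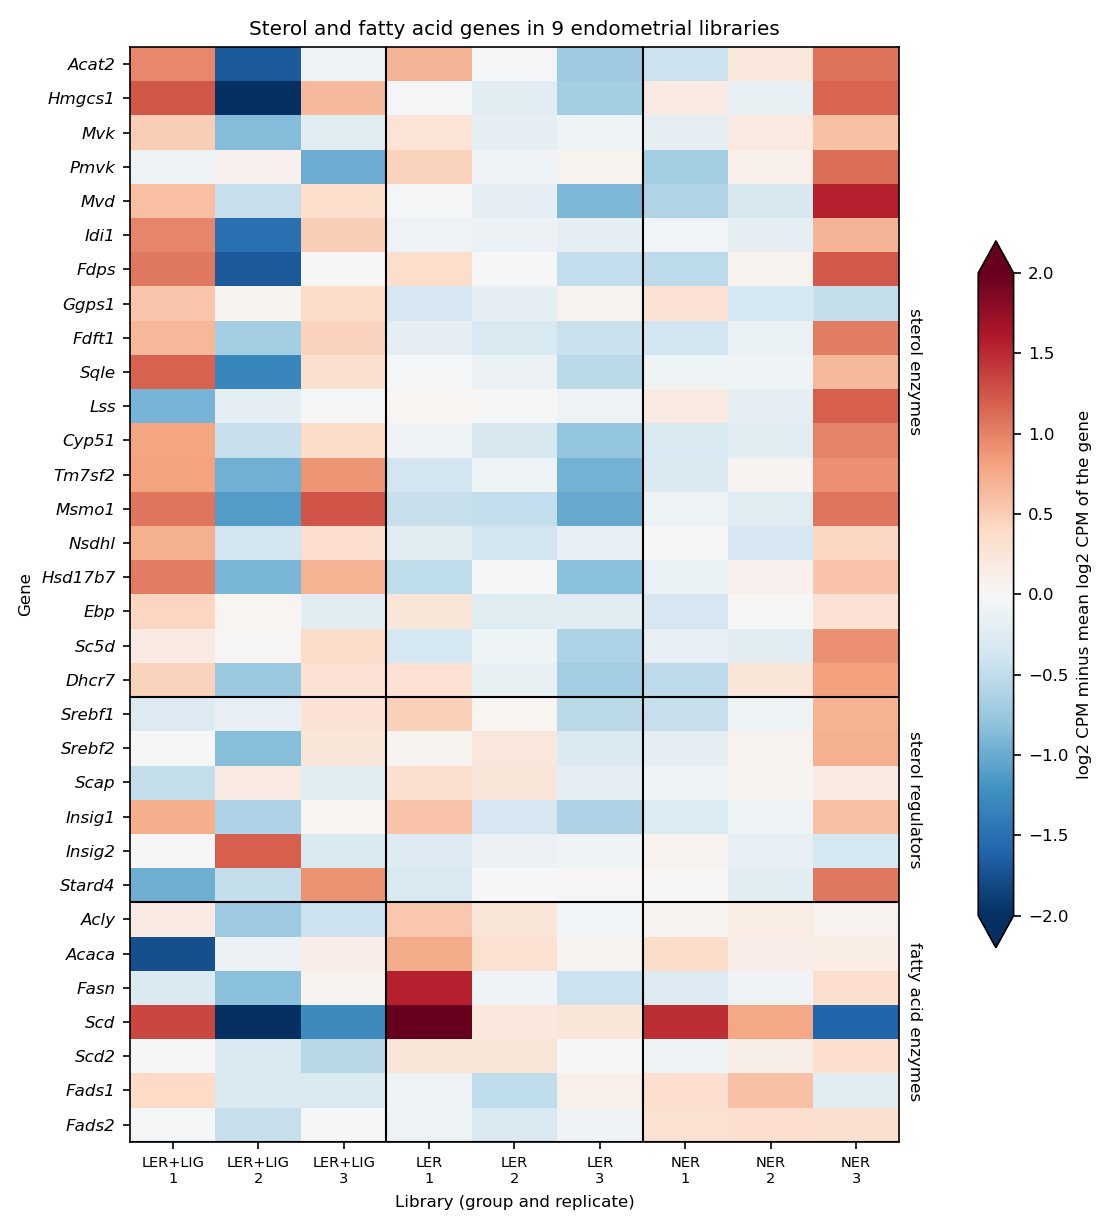
Heat map of the 32 tested genes (rows) in the 9 libraries (columns, LER+LIG, LER, NER), coloured by log2 CPM minus the gene's mean log2 CPM, with colours ending at -2 and 2. LER+LIG replicate 2 is blue and NER replicate 3 red through most of the sterol enzymes. LER+LIG replicate 2 is also the lowest library for 4 of the 7 fatty acid enzymes, or 57.1%, against 16.9% of all tested genes. LER replicate 1 is the highest for 4 of the 7, or 57.1%, against 8.53% of all tested genes.

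In the first steps, Hmgcs1 had the widest range of the sterol enzymes, 10.2-fold between its highest and lowest library. Its level was 325, 31.8 and 215 CPM in the LER+LIG libraries, 134, 118 and 86.2 CPM in the LER libraries and 154, 124 and 307 CPM in the NER libraries. The highest value, in LER+LIG replicate 1, and the lowest, in replicate 2, came from the same group. Acat2, the cytosolic acetoacetyl-CoA thiolase that supplies Hmgcs1, had 27.8, 4.42 and 13.3 CPM in the LER+LIG libraries, 22.8, 13.9 and 8.60 CPM in the LER libraries and 10.6, 16.7 and 30.2 CPM in the NER libraries. LER+LIG replicate 2 was again the lowest and NER replicate 3 the highest.

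The mevalonate and phosphomevalonate kinases Mvk and Pmvk moved less and differed from each other. Mvk ranged from 9.66 CPM in LER+LIG replicate 2 to 26.5 CPM in NER replicate 3. Pmvk ranged from 5.56 CPM in LER+LIG replicate 3 to 24.0 CPM in NER replicate 3. Mvd, the diphosphomevalonate decarboxylase, had 28.7, 13.7 and 24.1 CPM in the LER+LIG libraries, 18.7, 16.7 and 10.2 CPM in the LER libraries and 12.6, 15.3 and 55.6 CPM in the NER libraries. The value in NER replicate 3 stood well above the other NER libraries, which lay within the LER range.

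Of the isoprenoid enzymes, Idi1 had 316, 56.9 and 226 CPM in the LER+LIG libraries, 149, 147 and 139 CPM in the LER libraries and 154, 142 and 256 CPM in the NER libraries. The 3 LER values were close together, and the LER+LIG values lay on both sides of them. Fdps, the farnesyl diphosphate synthase, had 272, 41.0 and 132 CPM in the LER+LIG libraries, 166, 131 and 92.7 CPM in the LER libraries and 90.7, 137 and 305 CPM in the NER libraries. Its range of 7.44-fold was again set by NER replicate 3 and LER+LIG replicate 2. Ggps1 went another way, with 49.7, 35.3 and 43.8 CPM in the LER+LIG libraries, 26.9, 29.9 and 35.4 CPM in the LER libraries and 41.6, 26.4 and 24.2 CPM in the NER libraries. NER replicate 3 was its lowest library, and LER+LIG replicate 2 was not low.

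Squalene synthase, Fdft1, makes the first dedicated sterol precursor and had 93.7, 36.6 and 80.9 CPM in the LER+LIG libraries, 51.6, 47.6 and 43.2 CPM in the LER libraries and 45.2, 53.6 and 119 CPM in the NER libraries. Sqle, the squalene epoxidase and a rate-controlling oxygenase, had 135, 24.3 and 74.7 CPM in the LER+LIG libraries, 59.0, 55.2 and 41.4 CPM in the LER libraries and 56.6, 56.3 and 93.9 CPM in the NER libraries. In both genes the LER values lay between the lowest and the other LER+LIG values. Lss had 14.4, 23.9 and 26.7 CPM in the LER+LIG libraries, 28.3, 27.6 and 26.2 CPM in the LER libraries and 31.1, 23.9 and 63.0 CPM in the NER libraries. Lss differed from its neighbours in that LER+LIG replicate 1 was its lowest library. Its gene model has 8862 bases, and that library was low in long genes as a whole, although Ggps1, with 10563 bases, was highest of the 9 there. The part of gene length in the level of Lss was not tested.

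After lanosterol, Cyp51 had 245, 103 and 183 CPM in the LER+LIG libraries, 135, 114 and 83.1 CPM in the LER libraries and 114, 122 and 282 CPM in the NER libraries. Msmo1 had 125, 27.7 and 144 CPM in the LER+LIG libraries, 43.6, 42.8 and 29.6 CPM in the LER libraries and 56.0, 50.6 and 126 CPM in the NER libraries. Every LER value of Msmo1 lay below every NER value, whereas LER+LIG replicate 2 lay below all of the LER values. Within LER+LIG, the remaining enzymes of the C4 demethylation complex were also lowest in replicate 2. They were highest in replicate 1, while Msmo1 was highest in replicate 3. Nsdhl, the sterol-4-alpha-carboxylate dehydrogenase, had 50.6, 23.8 and 38.9 CPM in the LER+LIG libraries, 26.6, 23.8 and 27.4 CPM in the LER libraries and 30.7, 24.4 and 41.2 CPM in the NER libraries. Hsd17b7 had 14.8, 3.81 and 11.7 CPM in the LER+LIG libraries, 5.09, 7.23 and 4.05 CPM in the LER libraries and 6.56, 7.66 and 10.7 CPM in the NER libraries. Both were lower in LER+LIG replicate 2 than in replicates 1 and 3.

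Tm7sf2, a sterol C14 reductase, ranged from 4.15 CPM in LER+LIG replicate 2 to 15.3 CPM in NER replicate 3. Ebp, the delta8-delta7 sterol isomerase, varied least of the 19 enzymes, 1.71-fold over the 9 libraries. Dhcr7, the last reductase of its branch, ranged from 12.0 CPM in LER+LIG replicate 2 to 35.3 CPM in NER replicate 3. Sc5d, the lathosterol desaturase, was the only sterol enzyme whose LER+LIG values all lay above its LER values. It had 37.9, 34.4 and 43.9 CPM in the LER+LIG libraries, 26.6, 32.1 and 21.8 CPM in the LER libraries and 30.1, 28.9 and 63.6 CPM in the NER libraries. NER overlapped both other groups for Sc5d.

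The 6 regulators did not all follow the enzymes. Srebf2 had 148, 81.8 and 175 CPM in the LER+LIG libraries, 154, 174 and 121 CPM in the LER libraries and 129.8, 155 and 241 CPM in the NER libraries. It was lowest in LER+LIG replicate 2 and highest in NER replicate 3, as most of the enzymes were. Srebf1 had 55.0, 58.5 and 80.1 CPM in the LER+LIG libraries, 91.2, 67.3 and 45.3 CPM in the LER libraries and 47.9, 61.9 and 106 CPM in the NER libraries, with LER replicate 3 lowest. Scap, the SREBP escort, ranged from 65.4 CPM in LER+LIG replicate 1 to 114 CPM in LER replicate 1. Stard4, a carrier of cholesterol through the cytosol, ranged from 7.22 CPM in LER+LIG replicate 1 to 29.7 CPM in NER replicate 3. Groups overlapped for all of these.

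The 2 INSIG genes went opposite ways in LER+LIG replicate 2. Insig1, itself an SREBP target, had 193, 75.5 and 119 CPM in the LER+LIG libraries, 173, 92.0 and 76.1 CPM in the LER libraries and 96.1, 109.9 and 175 CPM in the NER libraries. Its lowest library was LER+LIG replicate 2, close to LER replicate 3. Insig2, the isoform that is not induced by SREBP, had 17.4, 39.9 and 14.3 CPM in the LER+LIG libraries, 14.6, 16.0 and 16.3 CPM in the LER libraries and 18.3, 15.6 and 13.7 CPM in the NER libraries. Its highest library was LER+LIG replicate 2, and the other 8 lay within a narrow band of 13.7 to 18.3 CPM.

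Genes of cholesterol export and of the liver X receptors were listed beside the members. By their median log2 deviation they were high in LER+LIG replicate 2, where the sterol enzymes were low. Abca1, which exports cholesterol from cells, had 84.9, 374 and 115 CPM in the LER+LIG libraries, 64.9, 73.7 and 123 CPM in the LER libraries and 79.8, 96.3 and 64.5 CPM in the NER libraries. Abcg1, a second exporter, had 21.3, 149.7 and 33.2 CPM in the LER+LIG libraries, 30.7, 33.5 and 39.3 CPM in the LER libraries and 31.4, 26.2 and 51.5 CPM in the NER libraries. Mylip, a liver X receptor target that marks lipoprotein receptors for degradation, had 33.0, 178 and 64.5 CPM in the LER+LIG libraries, 39.5, 36.7 and 51.5 CPM in the LER libraries and 36.5, 36.7 and 56.9 CPM in the NER libraries. For all 3 genes LER+LIG replicate 2 stood above the other 8 libraries. Of the 10 tested genes of esterification, efflux and liver X receptors, 8 were highest of all 9 libraries in LER+LIG replicate 2, or 80%, against 18.0% of all tested genes. These 3 exporters and targets were picked out after their values were seen. By summed CPM the list was highest in LER replicate 1, at 3357 CPM, against 3309 CPM in LER+LIG replicate 2. The list's median log2 deviation was -0.21 in NER replicate 3, where the sterol enzymes were highest. It was also -0.21 in NER replicate 1 and in LER+LIG replicate 3.

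**Figure D3:**
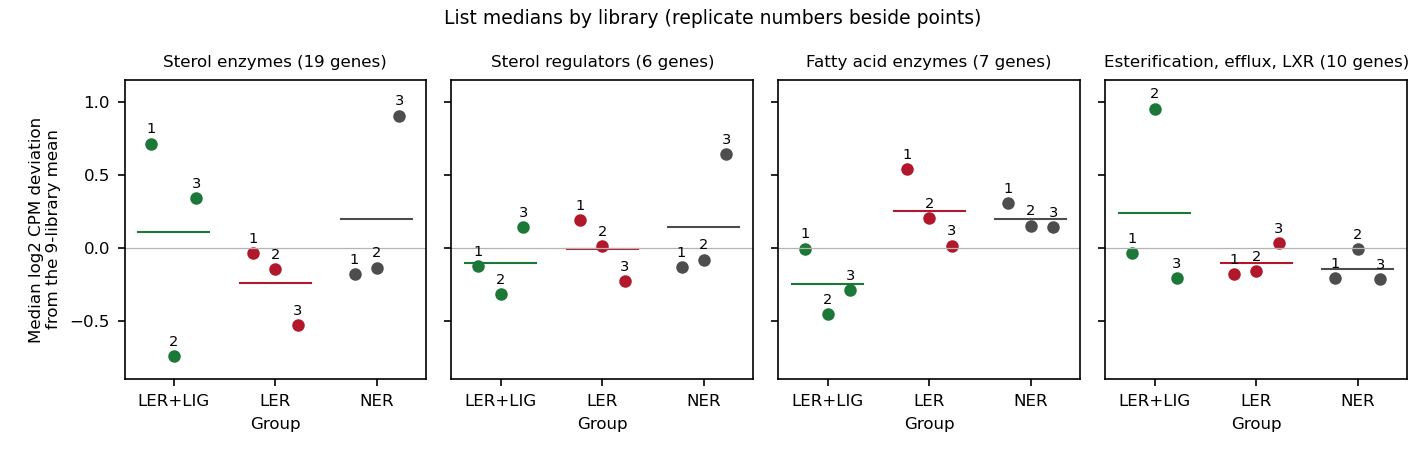
Median log2 CPM deviation from the 9-library mean for 4 gene lists, with 1 point per library (replicate number beside it) and a line at the mean of the group's 3 points. LER+LIG replicate 2 stands at -0.74 for the sterol enzymes and at 0.95 for the esterification, efflux and liver X receptor (LXR) genes.

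Other features of LER+LIG replicate 2 stood apart too. The oestrogen-responsive uterine genes summed to 1481, 14240.1 and 3499 CPM in the LER+LIG libraries, 1195, 1199 and 1150.2 CPM in the LER libraries and 1082, 1129.6 and 6634 CPM in the NER libraries. Stromal markers, led by Col1a1, summed to 44419.5, 8993 and 33191 CPM in the LER+LIG libraries and 27709.6 to 42362 CPM in the 6 others. By these sums, LER+LIG replicate 2 was highest for the first list and lowest for the stroma. By the median log2 deviation, NER replicate 3 was highest for the first list, at 1.72 against 1.49 in LER+LIG replicate 2. LER+LIG replicate 2 had the lowest stromal median, at -0.79. It was the lowest of the 9 libraries for 3 of 8 stromal markers, or 37.5%, as was NER replicate 3. Over all tested genes these 2 libraries were the lowest for 16.9% and 14.0%. NER replicate 3 and LER+LIG replicate 3 were also high in oestrogen-responsive genes, and their sterol enzyme medians were 0.91 and 0.34. Epithelial markers summed to 777, 2635 and 2202 CPM in the LER+LIG libraries, 1469, 1413 and 874 CPM in the LER libraries and 722, 1045 and 3925 CPM in the NER libraries, highest in NER replicate 3. Macrophage markers, led by Csf1r, summed to 516, 751 and 755 CPM in the LER+LIG libraries, 549, 356 and 502 CPM in the LER libraries and 354, 316 and 991 CPM in the NER libraries. The cell cycle list summed to 871, 252 and 639 CPM in the LER+LIG libraries, 589.8, 518 and 654 CPM in the LER libraries and 728, 761 and 303 CPM in the NER libraries. The progesterone-responsive genes summed to 643, 219 and 219 CPM in the LER+LIG libraries, 960.0, 924 and 679 CPM in the LER libraries and 677, 794 and 247 CPM in the NER libraries. Markers of steroidogenic cells, which use cholesterol to make hormones, were near 0, with sums of at most 6.51 CPM. The part of these cells and responses in the sterol enzyme levels was not tested.

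The fatty acid enzymes had another pattern, with the highest sum in LER replicate 1. The 7 tested enzymes with Elovl6 summed to 2030.0, 1436 and 1489 CPM in the LER+LIG libraries, 3507, 2187 and 1927 CPM in the LER libraries and 2038, 2208 and 2312 CPM in the NER libraries. The 2 lowest sums were those of LER+LIG replicates 2 and 3. The share of Scd, the inducible stearoyl-CoA desaturase of fat and liver, in this sum was 23.3% in that library and 0.123% in LER+LIG replicate 2.

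Scd was by far the most variable member, with 26 to 12055 counts and a 463-fold range. It had 146, 1.77 and 23.9 CPM in the LER+LIG libraries, 818, 66.9 and 68.5 CPM in the LER libraries and 160.1, 97.9 and 19.2 CPM in the NER libraries. Scd varied widely within every group, and LER replicate 1 stood above the other 8 libraries. Scd was lowest in LER+LIG replicates 2 and 3 and NER replicate 3. These were also the libraries high in oestrogen-responsive and low in progesterone-responsive uterine genes, and the part of that in the level of Scd was not tested. Scd2, by contrast, had 1178, 954 and 807 CPM in the LER+LIG libraries, 1397, 1403 and 1196 CPM in the LER libraries and 1116, 1285 and 1488 CPM in the NER libraries. All 3 LER values of Scd2 lay above all 3 LER+LIG values. Per length, the ratio of Scd to Scd2 was 0.660 in LER replicate 1 and 0.00209 in LER+LIG replicate 2. The Scd and Scd2 genes are near copies of each other, so reads counted for one may come from the other.

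Fasn, the fatty acid synthase, had 187, 127 and 239.7 CPM in the LER+LIG libraries, 666, 217 and 169 CPM in the LER libraries and 191, 217 and 288 CPM in the NER libraries. Apart from LER replicate 1, the groups overlapped. Thrsp, a lipogenic gene listed beside the members, had 17.4, 2.92 and 0.618 CPM in the LER+LIG libraries, 176, 20.1 and 18.8 CPM in the LER libraries and 17.6, 11.8 and 0.0724 CPM in the NER libraries, again with its highest value in LER replicate 1. The 12 adipocyte markers summed to 96.2, 167 and 118 CPM in the LER+LIG libraries, 1111, 75.4 and 81.0 CPM in the LER libraries and 119, 82.1 and 68.7 CPM in the NER libraries. All 12 markers had counts in LER replicate 1, where Plin1, the lipid droplet coat protein of fat cells, had 98.6 CPM and Cidec, another droplet protein, 61.7 CPM. Of the 12, 5, 5 and 4 were at 0 in LER+LIG replicates 1, 2 and 3, 0, 3 and 3 in the LER libraries and 0, 3 and 4 in the NER libraries. Cidec, Retn and Adrb3 were at 0 in every LER+LIG library. The marker with the highest mean was Cfd, at 13.6 to 298 CPM. The part of adipocytes in the fatty acid enzyme levels was not tested.

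**Figure D4:**
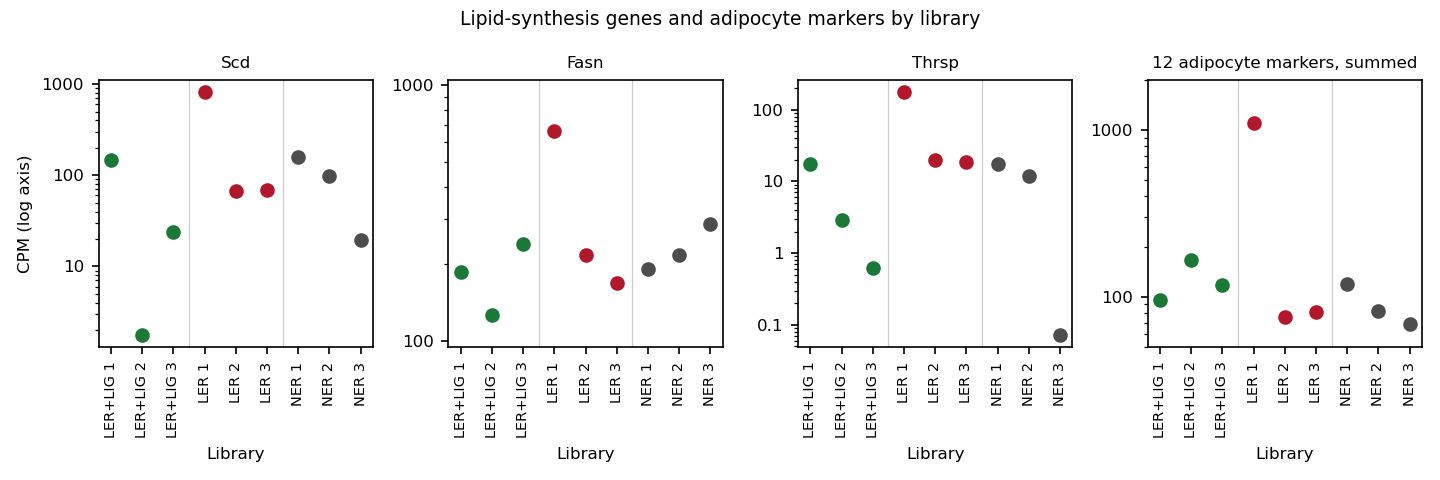
CPM on log axes for Scd, Fasn, Thrsp and the sum of 12 adipocyte markers in each library, ordered LER+LIG, LER, NER. LER replicate 1 is the highest library in all 4 panels, with 818 CPM of Scd and a marker sum of 1111 CPM.

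Upstream of Fasn, Acly, which makes cytosolic acetyl-CoA from citrate, had 261, 141 and 173 CPM in the LER+LIG libraries, 340.1, 278 and 226 CPM in the LER libraries and 242, 260.5 and 246 CPM in the NER libraries. LER+LIG replicates 2 and 3 were the lowest of the 9. Acaca, the acetyl-CoA carboxylase that commits carbon to fatty acids, had 16.5, 51.4 and 60.7 CPM in the LER+LIG libraries, 93.2, 68.4 and 57.7 CPM in the LER libraries and 71.5, 61.0 and 61.3 CPM in the NER libraries. Every LER+LIG value lay below every NER value, by a narrow margin between LER+LIG replicate 3 and NER replicate 2. The lowest value was that of LER+LIG replicate 1, the library with the length trend. Acaca has a gene model of 12936 bases, but Acly, with 12890 bases, had its highest LER+LIG value in the same library, and the part of gene length was not tested.

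The polyunsaturated desaturases differed from the rest. Fads2 had 83.4, 62.0 and 85.3 CPM in the LER+LIG libraries, 79.0, 68.8 and 80.8 CPM in the LER libraries and 105, 107 and 106 CPM in the NER libraries. It averaged 76.9 ± 12.97 CPM over the LER+LIG libraries, 76.2 ± 6.48 CPM over the LER libraries and 106 ± 0.838 CPM over the NER libraries (SD, n = 3 each). The 3 NER libraries were nearly equal and lay above all 6 others. Fads1, the delta-5 desaturase and a neighbour of Fads2 in function, had 158, 98.7 and 98.4 CPM in the LER+LIG libraries, 113, 85.0 and 129 CPM in the LER libraries and 152, 180.2 and 103 CPM in the NER libraries, and its groups overlapped.

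In LER against NER, sterol enzymes were lower on balance and Fads2 was lower without overlap, but no member passed the test. Of the 19 sterol enzymes, 18 had a fitted value below 0 and 1 above 0, with a median log2 fold change of -0.45. Over all 14229 tested genes, 52.9% were below 0 and the median was -0.02. Of the regulators, 5 of 6 were below 0, with a median of -0.12, which was 0.10 without NER replicate 3, 0.0050 without LER replicate 3, -0.32 without NER replicate 1, -0.30 without LER replicate 1 and -0.22 without NER replicate 2. Of the fatty acid enzymes, 5 of 7 were above 0, with a median of 0.17. The medians rested on single libraries: without NER replicate 3 the sterol enzyme median was -0.06, and without LER replicate 1 the fatty acid median was -0.26. Without NER replicate 1 that of the sterol enzymes was -0.68.

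By the quasi-likelihood test of edgeR, adjusted after Benjamini and Hochberg, 0 of 32 members were called at an adjusted p under 0.05, as were 0.0% of all tested genes. At an unadjusted p under 0.05 there was 1 member, Fads2, or 3.125%, against 0.871% of all tested genes. With DESeq2's Wald test 0 members were called, against 0.0113% of the genes with an adjusted p. Groups did not overlap for 2 members, Fads2 and Msmo1, which is 6.25% of the 32 against 7.15% of all tested genes. The non-overlapping share of the members is near that of all genes. In the authors' deposited table, whose calls cover 1.69% of its genes for LER against NER, Msmo1 was the only member called, with a log2 fold change of -1.02 and an unadjusted p of 0.00997. That table also gave Fads2 an unadjusted p of 0.00269 and Hmgcs1 one of 0.0328, without a call.

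The smallest p-values among the sterol enzymes were those of Sc5d, Msmo1, Mvd and Cyp51. The log2 fold change of Msmo1 was -1.004 ± 0.57 (SE), with an adjusted p of 1.00 by edgeR's quasi-likelihood test. Sc5d had -0.61 ± 0.33, Mvd -0.87 ± 0.57 and Cyp51 -0.64 ± 0.43, at the same adjusted p of 1.00 by edgeR. Without NER replicate 3 the values were -0.46 for Msmo1, -0.14 for Sc5d, 0.13 for Mvd and -0.09 for Cyp51. For the regulators, Stard4 had -0.49 ± 0.51 and Srebf2 -0.23 ± 0.33, and without NER replicate 3 these were 0.01 and 0.07. Fads2 had -0.48 ± 0.19 at an unadjusted p of 0.0306 and an adjusted p of 1.00 by edgeR, and leaving out any 1 library kept it between -0.52 and -0.41. Fads1 had -0.41 ± 0.29, and -0.22 without NER replicate 2.

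In LER+LIG against LER, sterol enzymes were higher on balance and fatty acid enzymes lower, with no member past the test. The LER libraries serve in both this comparison and the one with NER, so the opposite signs share their values. Of the 19 sterol enzymes, 16 were above 0 and 3 below, with a median log2 fold change of 0.53, against 54.9% above 0 and a median of 0.07 over all tested genes. Of the regulators, 3 of 6 were above 0 and the median was 0.03. With upper-quartile scaling the regulator median was -0.03. Of the fatty acid enzymes, 5 of 7 were below 0, with a median of -0.55. The sterol enzyme median was 0.09 without LER+LIG replicate 1, while it was 0.76 without LER+LIG replicate 2. The fatty acid median was -0.26 without LER replicate 1, and -0.29 after an offset for the length trend of each library.

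By the quasi-likelihood test of edgeR, adjusted after Benjamini and Hochberg, 0 of 32 members were called in LER+LIG against LER, as were 0.0% of all tested genes. At an unadjusted p under 0.05 there was 1 member, Msmo1, or 3.125%, against 12.5% of all tested genes. DESeq2 called 0 members, with 0.240 as the smallest adjusted p, against 1.96% of the genes with an adjusted p. Groups did not overlap for Sc5d, higher in LER+LIG, and Scd2, lower in LER+LIG. These 2 are 6.25% of the members, against 20.5% of all tested genes. In the authors' deposited table, which calls 7.96% of its genes for LER+LIG against LER, Msmo1 was again the only member called, with a log2 fold change of 1.34 and an unadjusted p of 0.0214.

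Msmo1 averaged 98.8 ± 62.3 CPM over the LER+LIG libraries, against 38.7 ± 7.84 CPM over the LER libraries (SD, n = 3 each). Its log2 fold change was 1.35 ± 0.57, with an adjusted p of 0.390 by edgeR's quasi-likelihood test, and 0.98 to 1.77 when any 1 library was left out. The difference in means was below the SD of the LER+LIG libraries. Ggps1 had 0.48 ± 0.26 with an adjusted p of 0.476 by edgeR. Hsd17b7 had 0.89 ± 0.50 and Nsdhl 0.54 ± 0.31, with adjusted p of 0.488 and 0.490 by edgeR. Without LER+LIG replicate 1 these were 0.47 for Hsd17b7 and 0.24 for Nsdhl, and without LER+LIG replicate 2 1.25 and 0.76. Of the regulators, Insig2 had 0.61 ± 0.38 with an adjusted p of 0.520 by edgeR. Without LER+LIG replicate 2, where it was high, the value of Insig2 was -0.004. Scap had -0.29 ± 0.22 with an adjusted p of 0.600 by edgeR, and -0.51 without LER+LIG replicate 2.

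Of the fatty acid enzymes, Acly averaged 192 ± 62.4 CPM over the LER+LIG libraries, against 282 ± 56.9 CPM over the LER libraries (SD, n = 3 each). The log2 fold change of Acly was -0.55 ± 0.27, with an adjusted p of 0.428 by edgeR's quasi-likelihood test. It was -0.87 without LER+LIG replicate 1 and -0.26 after the length offset. Scd2 averaged 979.9 ± 187 CPM over the LER+LIG libraries, against 1332 ± 118 CPM over the LER libraries (SD, n = 3 each), and its log2 fold change was -0.44 ± 0.24 with an adjusted p of 0.466 by edgeR. For Scd2 the groups did not overlap, and leaving out any 1 library kept the value between -0.63 and -0.32.

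**Figure D5:**
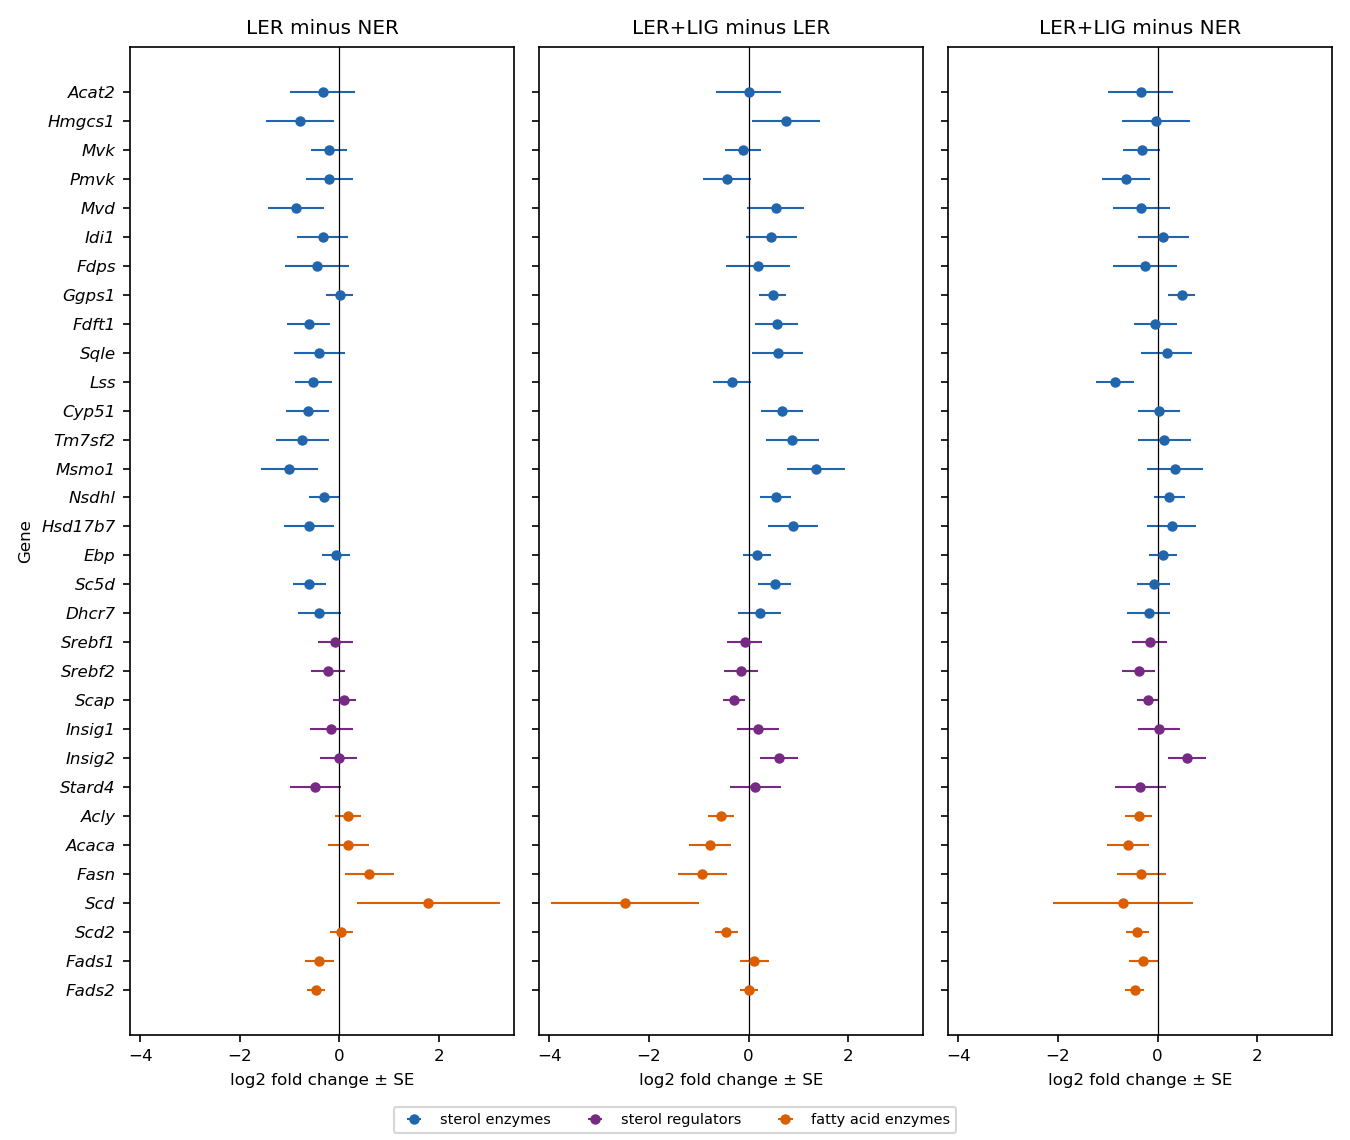
Fitted log2 fold changes with their standard errors (edgeR, 3 libraries a group) for the 32 tested genes for LER against NER (left), LER+LIG against LER (middle) and LER+LIG against NER (right). Most sterol enzymes lie left of 0 in the first panel and right of 0 in the second, Scd has the widest error bars, and no gene passed the adjusted threshold.

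In LER+LIG against NER, the sterol enzymes had no common direction and all 7 fatty acid enzymes lay below 0. Of the sterol enzymes, 9 were above 0 and 10 below, with a median log2 fold change of -0.03, against a median of 0.04 over all tested genes. This median was 0.42 without NER replicate 3, 0.24 without LER+LIG replicate 2 and -0.39 when LER+LIG replicate 1 was left out. It was 0.11 after the offset for the length trend. The fatty acid median was -0.40 over the 7, and -0.23 without LER+LIG replicate 2. In LER+LIG replicate 1 the median fatty acid enzyme stood at -0.01 from the 9-library mean, and at 0.39 after correction for the length trend. That corrected value lay above those of the NER libraries, 0.26, 0.18 and 0.07. The corrected values of LER+LIG replicates 2 and 3 were -0.41 and -0.34, below NER. Of the regulators, 4 of 6 were below 0, with a median of -0.18, which ran from -0.32 without NER replicate 1 to 0.17 without NER replicate 3 and was -0.06 without LER+LIG replicate 1.

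By the quasi-likelihood test of edgeR, adjusted after Benjamini and Hochberg, 0 of 32 members were called in LER+LIG against NER, as were 0.0% of all tested genes. At an unadjusted p under 0.05 there were 2 members, Fads2 and Lss, or 6.25%, against 5.44% of all tested genes. DESeq2 called 0 members, against 0.0981% of the genes with an adjusted p. Groups did not overlap for 2 members, Acaca and Fads2, both lower in LER+LIG, or 6.25% against 8.27% of all tested genes. Fads2 had a log2 fold change of -0.46 ± 0.19 with an adjusted p of 0.868 by edgeR's quasi-likelihood test. Leaving out any 1 library kept it between -0.54 and -0.35. Scd2 had -0.40 ± 0.24 with an adjusted p of 0.869 by edgeR.

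Lss had -0.86 ± 0.38 with an adjusted p of 0.868 by edgeR's quasi-likelihood test. Without NER replicate 3 the value of Lss was -0.36. Ggps1 had 0.48 ± 0.26, Pmvk -0.64 ± 0.48 and Mvk -0.32 ± 0.37, with adjusted p of 0.868, 0.880 and 0.927 by edgeR. Leaving out 1 library gave 0.32 (NER replicate 3) to 0.76 (NER replicate 1) for Ggps1. For Pmvk it gave -0.97 (NER replicate 1) to -0.05 (NER replicate 3), and for Mvk -0.75 (LER+LIG replicate 1) to -0.07 (LER+LIG replicate 2). Of the regulators, Insig2 had 0.59 ± 0.38 and Srebf2 -0.38 ± 0.33, with adjusted p of 0.869 and 0.908 by edgeR. Without LER+LIG replicate 2 the value of Insig2 was -0.02, and without NER replicate 3 that of Srebf2 was -0.10.

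The wider pathway was followed through 7 further lists, chosen with earlier results of these data known. Of their 74 tested genes, 0 were called by edgeR's quasi-likelihood test in any of the 3 comparisons. At an unadjusted p under 0.05 there were 1 in LER against NER, 9 in LER+LIG against LER and 5 in LER+LIG against NER, and DESeq2 called 0 of the 74 in each. These are 1.35%, 12.2% and 6.76% of the 74 genes, beside 0.871%, 12.5% and 5.44% of all tested genes. The list medians ran from -0.16 to 0.11 in LER against NER and from -0.36 to 0.65 in LER+LIG against NER, and the values that follow are for LER+LIG against LER. Of 11 genes of SREBP proteases and sterol-regulated degradation, 7 were above 0, with a median log2 fold change of 0.07. Rnf139, a sterol-sensing ubiquitin ligase, had a log2 fold change of 0.53 ± 0.21. Of 8 genes of the isoprenoid branch, 7 were above 0 and the median was 0.19. Fnta, the alpha subunit of protein prenyltransferases, had 0.59 ± 0.27 and Nus1, a subunit of the dolichol-making enzyme, 0.45 ± 0.23. The adjusted p of these 3 genes was 0.368 to 0.457 by edgeR.

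Of 12 genes of sterol uptake and transport, 8 were above 0, with a median of 0.30. Npc2, which moves cholesterol out of lysosomes, had 0.84 ± 0.35 and Gramd1c, of the sterol carriers at membrane contacts, -0.93 ± 0.40. Of 10 genes of esterification, efflux and liver X receptors, 8 were above 0 and the median was 0.57. Nceh1, a cholesteryl ester hydrolase, had 0.92 ± 0.35 and Abca1 1.14 ± 0.53. The adjusted p of these 4 genes was 0.364 to 0.414 by edgeR. The high values of Nceh1 and Abca1 in LER+LIG came from replicate 2, at 118 and 374 CPM.

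Of 11 genes of acetyl-CoA, NADPH and chain elongation, 6 were above 0, with a median of 0.15. Acss2, which makes acetyl-CoA from acetate and is an SREBP target, had 54.1, 10.3 and 14.2 CPM in the LER+LIG libraries, 110.5, 102 and 99.4 CPM in the LER libraries and 77.3, 90.7 and 22.7 CPM in the NER libraries. All 3 LER libraries stood above all LER+LIG libraries, and NER replicate 3 lay below LER+LIG replicate 1. The log2 fold change of Acss2 was -1.99 ± 0.67, with an adjusted p of 0.358 by edgeR's quasi-likelihood test. Acss2 was low in NER replicate 3, where the sterol enzymes were high. Thrsp had -3.36 ± 1.58 with an adjusted p of 0.422 by edgeR.

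Of 11 genes of glycerolipid synthesis, 7 were below 0, with a median of -0.30. Lpin3, a phosphatidate phosphatase, had -0.76 ± 0.22 and Acsl4, which activates arachidonic acid, -1.55 ± 0.55. The adjusted p of Lpin3 was 0.348 and that of Acsl4 0.361 by edgeR. Of 11 genes of fatty acid oxidation, 8 were above 0, with a median of 0.18. Acadl, a long-chain acyl-CoA dehydrogenase, had 0.57 ± 0.25 and Hadhb, the beta subunit of the trifunctional protein, 0.34 ± 0.20. The adjusted p of Acadl was 0.393 and that of Hadhb 0.509 by edgeR.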

How the data were processed

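Poly-A selected RNA of rat uterus, described as endometrial tissue in the titles, was sequenced in 9 libraries. The authors' deposited table holds whole-number read counts per gene, per the file headers, and the FPKM the authors derived from them. A second deposited table holds the authors' log2 fold changes, unadjusted p-values and calls for 2 comparisons. The aligner, counter, strand setting, build and the authors' test were not given in the sources used here; reads of overlapping, antisense or near-copy genes therefore could not be told apart.

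Analysis of these counts used edgeR 4.0.16 in R 4.3.3: filterByExpr left 14229 genes, TMM factors were 0.867 to 1.05, and glmQLFit (robust) with glmQLFTest was fitted over all 9 libraries. Calls needed a Benjamini-Hochberg adjusted p under 0.05 over all tested genes. Standard errors are the log2 fold change divided by the root of F. CPM carry the TMM factors, with a prior count of 2 on the log2 scale. Rows without a symbol, 8 in all and at most 0.0031% of the counts, were left out. The fitting code was checked on simulated counts.

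Members and lists were chosen with earlier results of these data known. Fits are printed, in each comparison, for the 4 sterol enzymes, 2 regulators and 2 fatty acid enzymes with the smallest unadjusted p, and in LER+LIG against LER for the 2 such genes of each other list, of which 1 gene is not reported here. The highest member of a marker list is given with the list's sum. Alternatives were DESeq2 1.42.0, DESeq2 size factors, upper-quartile scaling, no filter on low counts, fits restricted to each pair of groups, a replicate block and leaving out each library. An offset for gene length was added after seeing the data. Labels gave no batch or date. Every pair of libraries differed by more than sampling noise, with a chi-square of at least 18.7 per degree of freedom. Among tested members the lowest count was 26, for Scd.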

Additional observations from a re-analysis of the deposited data

How the results depend on the processing

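No member was called under any alternative run. In LER against NER, LER+LIG against LER and LER+LIG against NER, DESeq2 called 2, 299 and 15 genes in place of 0 by edgeR. In LER+LIG against LER, edgeR called 1 gene with upper-quartile scaling, 1 without the low-count filter and 1 with the length offset, which was chosen after seeing the data. Leaving out 1 library gave 0 to 1 calls there. The list medians depended more on single libraries. For fatty acid enzymes they ran from -0.26 to 0.31 in LER against NER, from -0.69 to -0.26 in LER+LIG against LER and from -0.57 to -0.23 in LER+LIG against NER, and the length offset gave -0.29 in LER+LIG against LER. For regulators they ran from -0.32 to 0.10 in LER against NER, from -0.26, without LER+LIG replicate 3, to 0.10 in LER+LIG against LER and from -0.32 to 0.17 in LER+LIG against NER. For sterol enzymes they ran from -0.68 to -0.06, from 0.09 to 0.76 and from -0.39 to 0.42 in the same 3 comparisons. Among single genes, leaving out 1 library gave ranges that crossed 0 in LER against NER for Mvd (-1.22 to 0.13), Stard4 (-0.72 to 0.0053) and Srebf2 (-0.41 to 0.070), and for Insig2 in LER+LIG against LER (-0.0044 to 0.87) and LER+LIG against NER (-0.024 to 0.86). The remaining 379 values of single genes kept their sign and their side of the threshold. The cause of these shifts was not tested beyond the libraries named.

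Libraries with the same number did not deviate together in all pairs (correlations -0.19 to 0.51). Pairs with different numbers had correlations of -0.55 to 0.54. With 3 libraries a group, these correlations cannot show whether the numbers pair libraries. With the replicate block, 0 genes were called in each comparison, and the sterol enzyme medians were -0.42 in LER against NER, 0.38 in LER+LIG against LER and -0.03 in LER+LIG against NER. With 3 libraries a group, differences of the size seen here did not pass the adjusted threshold for any member.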
